A study of Mus musculus with 24 samples.

Results

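The 10 genes described here make and move carnitine and carry fatty acids on it, and they were followed in livers and hearts of mice with and without the nuclear receptor PPARα. Members were all probe sets that the array's probe-to-gene table lists for Cpt1a, Cpt1b, Cpt2, Slc25a20, Crat, Crot, Slc22a5, Aldh9a1, Bbox1 or Tmlhe. That gave 10 of 18194 genes, with 23 of the 45037 probe sets tested. Each gene is represented by the brightest of its probe sets that list no other gene (mean of the 24 arrays), and the further probe sets are named where they are used. Cpt1b had only a probe set that also lists Chkb and Gm44502, so its values may hold signal of those genes.

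The groups were KO females (pools 10, 11 and 12), WT females (pools 7, 8 and 9), KO males (pools 4, 5 and 6) and WT males (pools 1, 2 and 3), each with liver and heart arrays. All mice were of the SV129 strain, 10 to 12 weeks of age, and tissues were taken at zeitgeber time 14. The labels name no drug, diet or feeding state, and they give the knockout of Ppara without its allele. Each sex and genotype had 12 mice in 3 pools, which is 4 mice a pool, and a p-value here measures the spread between such pools. Values are log2 intensities, the 2 tissues were normalized apart, and levels were therefore not compared between tissues other than by rank within an array.

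Long-chain fatty acids enter mitochondria as carnitine esters. CPT1 on the outer membrane makes the ester, the carrier SLC25A20 takes it across the inner membrane in exchange for free carnitine, and CPT2 hands the fatty acid back to coenzyme A for beta-oxidation. CPT1A is the main liver form of the first enzyme and CPT1B the main muscle form. CRAT and CROT make short-chain and medium-chain carnitine esters, SLC22A5 (OCTN2) takes up carnitine from blood, and TMLHE, ALDH9A1 and BBOX1 act in carnitine synthesis, the last of these mainly in liver and kidney. PPARα binds fatty acids and, with the receptor RXR, drives genes of fatty acid oxidation in both tissues.

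Ppara itself was lower in KO than in WT pools, with log2 differences of -1.05 in female liver, -1.12 in male liver, -1.53 in female heart and -1.25 in male heart (limma, adjusted p from 0.000252 to 0.0017). A signal remained in KO pools, and whether this probe set lies in the deleted part is not given. Hepatocyte markers averaged between 12.06 and 12.37 in liver and cardiomyocyte markers between 12.66 and 12.78 in heart, with no member of these lists under the array median in its own tissue. In heart, 3 KO pools stood apart. Male pool 4 had Xist at 6.62, where no other male heart exceeded 3.12. Its mean over 9 skeletal muscle markers was 4.39, against 3.07 to 3.27 in the other hearts. Actn3 and Myh1 of that list lay within the range of the other hearts. Female pool 10 had the Y-linked Eif2s3y at 3.34, against at most 2.50 in the other female hearts. Its mean over 8 hepatocyte markers was 4.13, against 3.04 to 3.40 in the other hearts. Alb had 7.94 there, where no other heart exceeded 5.02, while Ahsg and Cps1 lay within the range of the other hearts. Male pool 6 had Ptprc, the leukocyte antigen CD45, at 6.52, where no other heart exceeded 4.20. Its mean over 3 lymphocyte markers was 4.69, against 3.20 to 3.76 in the other hearts. Of the other 2 markers, Cd3e was highest there at 4.35 and Cd79a, at 3.22, lay within the range of the other hearts. Each heart result below was also computed without pools 4 and 10 and, as an alternative chosen after seeing the data, without pools 4, 6 and 10. Leaving out all 3 keeps KO pool 5 as the only KO male heart, which limma then assumes to vary like the other groups. Values without these pools are given where leaving them out changed a call.

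Before any comparison of genotypes, the place of each gene within its array showed which forms each tissue carries. Cpt1b stood at a median percentile of 98.1 among all probe sets of the heart arrays and of 56.7 among those of the liver arrays. Cpt1a stood at 98.4 in liver and 88.0 in heart. The synthesis gene Bbox1 stood at 98.0 in liver and at 47.7 in heart, so heart arrays gave no signal of it above a typical probe set.

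Crot, the peroxisomal medium-chain enzyme, stood at 97.5 in liver and 73.6 in heart, and Crat at 85.4 in liver and 96.0 in heart. Cpt2 and Slc25a20, which both tissues need, stood above 95 in each at the median over KO and WT arrays together. Slc25a20 lay below 95 in every KO array of both tissues. In heart it stood at 91.45 to 93 in KO arrays and at 97.38 to 97.84 in WT arrays. Percentiles of 1 probe set depend on how well that probe set binds, and they are given as a description with no test.

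**Figure D1:**
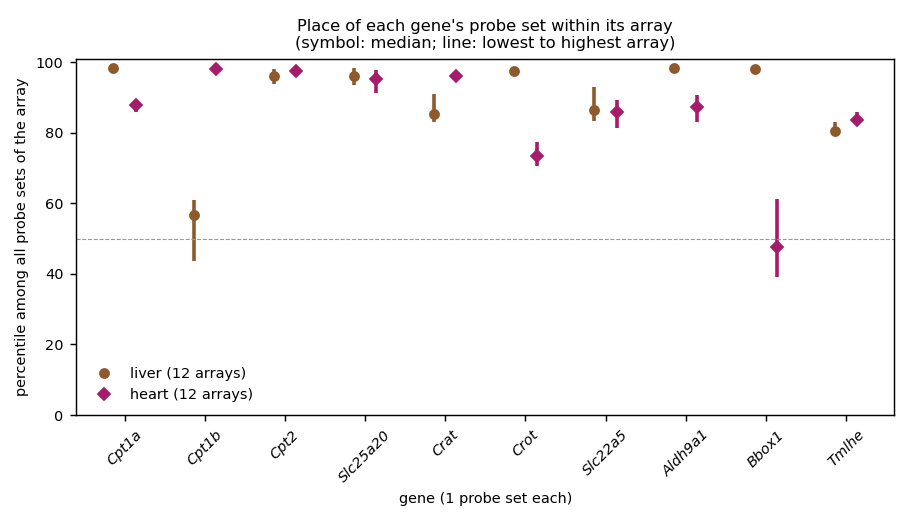
Percentile of each gene's probe set among all probe sets of its array (vertical axis), in 12 liver arrays (circles) and 12 heart arrays (diamonds). Symbols are medians and lines run from the lowest to the highest array. Cpt1b lies near the middle of the liver arrays and at 98.1 in heart, and Bbox1 the other way round, at 47.7 in heart and 98.0 in liver.

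The loss of PPARα lowered part of the shuttle and left other parts with no difference past the threshold, an adjusted p under 0.05 in limma with Benjamini-Hochberg adjustment over all probe sets. Slc25a20 and Cpt2 fell in all 4 comparisons of KO with WT. Slc22a5 fell in female liver and in both hearts, Aldh9a1 in male liver and in both hearts, and Cpt1b in male heart. Cpt1a, Crat, Crot, Bbox1 and Tmlhe passed in none of the 4, and no member probe set rose.

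Of the 23 member probe sets, 6 passed in female liver, where 0.48% of all probe sets did, and all 6 were lower in KO. In male liver 5 passed, against 0.344% of all probe sets. In female heart 6 passed, against 0.311%, and in male heart 7 passed, against 0.275%. All of these were lower in KO too.

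By gene, 3 of 10 passed in female liver, 3 in male liver, 4 in female heart and 5 in male heart. With 1 probe set per gene, the shares over all genes were 0.731% in female liver, 0.555% in male liver, 0.473% in female heart and 0.407% in male heart. The median log2 difference of the 10 genes was -0.22 in female liver, -0.38 in male liver, -0.30 in female heart and -0.32 in male heart, while the median over all probe sets lay within 0.01 of 0 in each.

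**Figure D2:**
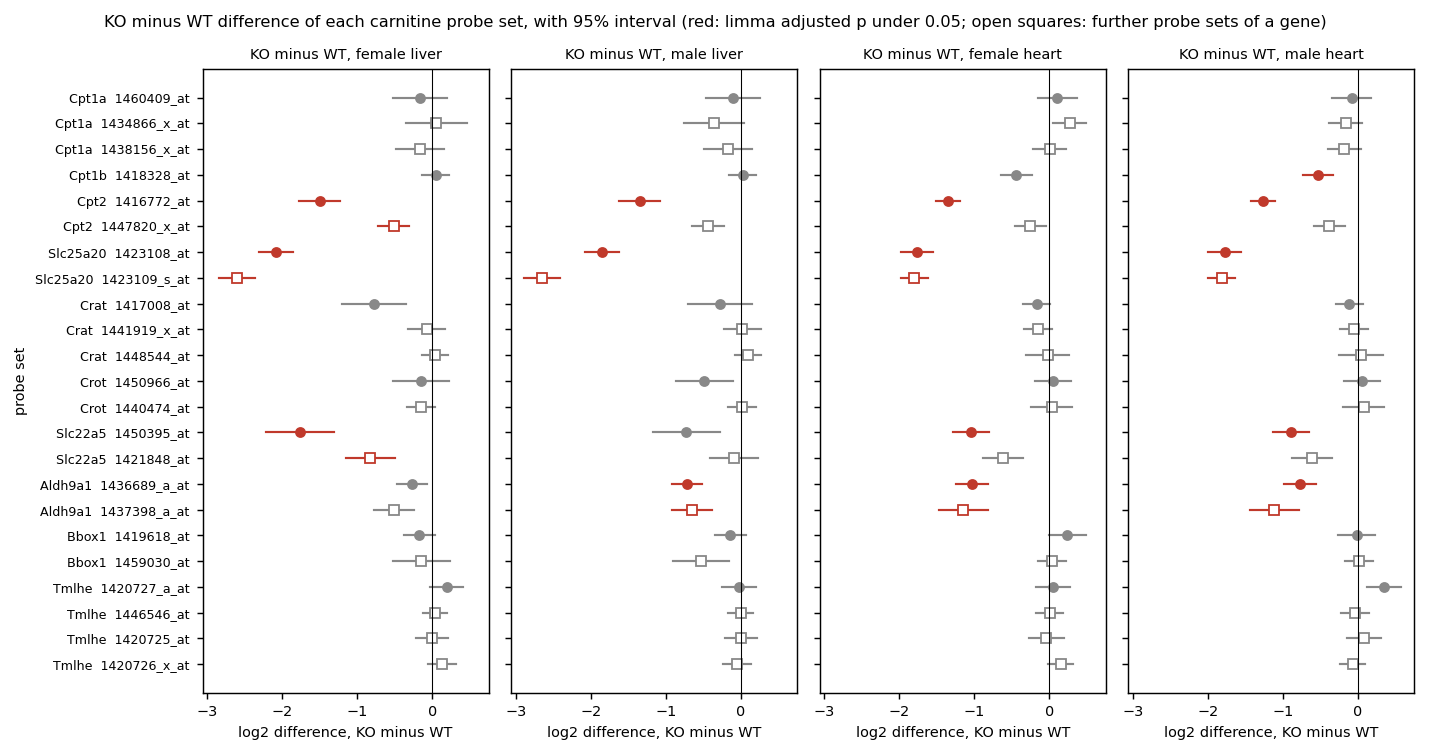
Log2 difference, KO minus WT, of the 23 member probe sets (rows) in the 4 comparisons (panels), with 95% intervals from limma. Filled circles are the probe sets that represent a gene, open squares further probe sets, and red marks an adjusted p under 0.05. Both Slc25a20 probe sets lie between -1.76 and -2.65 in every panel, while those of Cpt1a, Crat, Crot, Bbox1 and Tmlhe stay grey.

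Slc25a20 encodes the carnitine-acylcarnitine carrier of the inner mitochondrial membrane. In female liver its KO pools 10, 11 and 12 had 7.10, 6.92 and 6.72, against 8.96, 9.18 and 8.87 in WT pools 7, 8 and 9. In male liver KO pools 4, 5 and 6 had 6.67, 6.64 and 6.77, against 8.58, 8.60 and 8.45 in WT pools 1, 2 and 3. Every KO liver pool lay below every WT liver pool, by more than 1 log2 unit.

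The log2 difference of Slc25a20 was -2.09 (SE 0.10, limma adjusted p = 3.36e-07) in female liver, a 4.25-fold lower level. It was -1.85 (SE 0.10, limma adjusted p = 2.17e-06) in male liver, a 3.61-fold lower level. The further probe set 1423109_s_at, of a type that can bind related transcripts, moved more in liver, by -2.61 in females and -2.65 in males. It read 3.51 to 4.14 in the 6 KO livers and 6.23 to 6.70 in the 6 WT livers.

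In heart, Slc25a20 had 6.98, 6.79 and 7.12 in KO females and 8.79, 8.84 and 8.55 in WT females. KO males had 6.98, 6.77 and 6.94 and WT males 8.65, 8.65 and 8.72. Every KO heart lay more than 1 log2 unit below every WT heart, and the sexes overlapped within a genotype. The differences were -1.76 in females (SE 0.10, limma adjusted p = 1.24e-07) and -1.77 in males (SE 0.10, limma adjusted p = 1.39e-07), and the further probe set gave -1.80 and -1.81.

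Cpt2 encodes the enzyme that follows the carrier, on the inner face of the inner membrane. Female livers had 7.11, 7.26 and 7.05 in KO pools and 8.63, 8.81 and 8.48 in WT pools. Male livers had 6.77, 7.23 and 6.73 in KO pools and 8.32, 8.22 and 8.23 in WT pools. No KO pool came within 0.9 of a WT pool of its own tissue.

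The log2 difference of Cpt2 was -1.50 in female liver (SE 0.13, limma adjusted p = 5.13e-05) and -1.35 in male liver (SE 0.13, limma adjusted p = 0.00021). Female hearts had 8.17, 8.17 and 8.07 in KO pools and 9.52, 9.48 and 9.45 in WT pools. Male hearts had 8.16, 8.25 and 8.25 in KO pools and 9.54, 9.50 and 9.41 in WT pools. Pools of 1 genotype differed little in heart, and the differences were -1.35 in females (limma adjusted p = 1.09e-07) and -1.26 in males (limma adjusted p = 2.11e-07), each with an SE of 0.08.

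A dim further probe set of Cpt2, 1447820_x_at, with means of 2.21 in liver and 2.68 in heart, passed only in female liver (-0.52, limma adjusted p = 0.0327). Averaging it with the main one moved the Cpt2 difference to -1.01 in female liver, -0.89 in male liver, -0.80 in female heart and -0.82 in male heart, all still past the threshold. Slc25a20 and Cpt2 followed each other closely, with a Pearson r of 0.98 over the 12 liver arrays and 0.99 over the 12 heart arrays, which are descriptions over arrays that share the genotype difference. In bulk tissue, fewer cells of a type and less RNA per cell cannot be told apart.

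**Figure D3:**
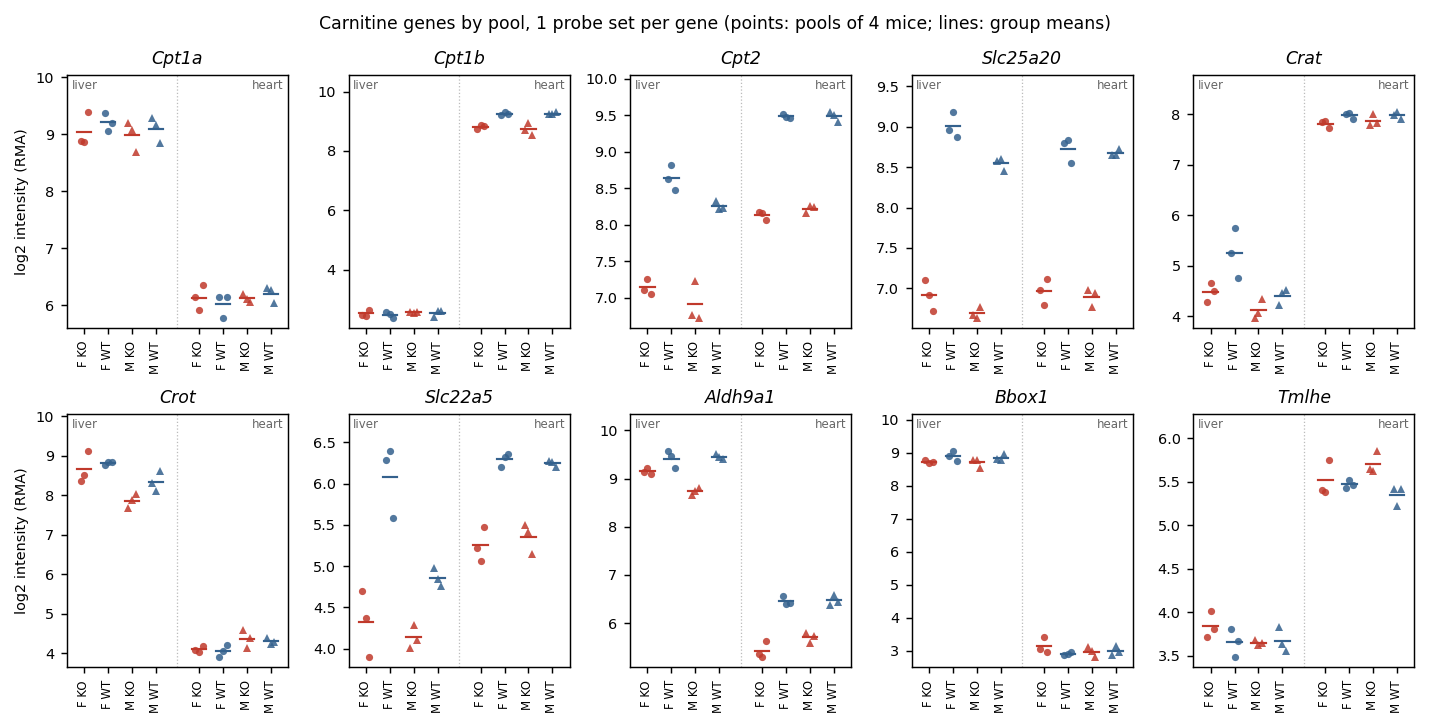
Log2 intensity of the probe set that represents each gene, by pool, in liver (left of the dotted line) and heart (right), for KO and WT females (circles) and KO and WT males (triangles). Red is KO, blue is WT, and short lines are group means. KO and WT pools do not overlap for Slc25a20 and Cpt2 in any panel, while those of Cpt1a do in all 4 comparisons. Vertical scales differ between genes.

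Slc22a5, the carnitine transporter of the cell membrane, had 4.69, 4.37 and 3.90 in KO female livers, against 6.28, 6.39 and 5.58 in WT female livers. KO male livers had 4.01, 4.29 and 4.10, against 4.98, 4.85 and 4.76 in WT male livers. KO pools lay below WT pools in both sexes, and the WT females were the highest livers.

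The Slc22a5 difference was -1.76 in female liver (SE 0.21, limma adjusted p = 0.00117) and -0.72 in male liver (SE 0.21, limma adjusted p = 0.298). A fit of only the arrays compared, in which each sex has its own spread, gave adjusted p = 0.0777 in female and 0.00809 in male liver. The further probe set 1421848_at differed by -0.82 in females (limma adjusted p = 0.0275) and -0.09 in males (limma adjusted p = 0.905), with WT female livers at 3.66, 3.44 and 3.05 and all other livers between 2.31 and 2.82. In WT male livers it stood at percentiles 54.28, 59.45 and 67.91 of the array. It was thus dim in WT males already, and a fall in males could hardly show.

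In heart, Slc22a5 had 5.22, 5.06 and 5.48 in KO females and 6.20, 6.32 and 6.36 in WT females. KO males had 5.50, 5.41 and 5.15 and WT males 6.27, 6.26 and 6.20. The genotypes did not overlap in either sex. The differences were -1.04 in females (SE 0.11, limma adjusted p = 0.000125) and -0.89 in males (SE 0.11, limma adjusted p = 0.000555), and those of 1421848_at, -0.62 and -0.61, did not pass (limma adjusted p = 0.0556 and 0.0686). Without heart pools 4, 6 and 10 the call of Slc22a5 in male heart was lost (-0.83, limma adjusted p = 0.0838).

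Aldh9a1 encodes the aldehyde dehydrogenase that makes gamma-butyrobetaine, the last precursor of carnitine. In heart it had 5.37, 5.29 and 5.62 in KO females and 6.56, 6.40 and 6.42 in WT females, and 5.80, 5.59 and 5.72 in KO males and 6.38, 6.59 and 6.45 in WT males. Every KO heart lay below every WT heart. The differences were -1.03 (SE 0.10, limma adjusted p = 4.71e-05) in females and -0.77 (SE 0.10, limma adjusted p = 0.00098) in males, and the probe set 1437398_a_at gave -1.14 and -1.11, both past the threshold. Without heart pools 4, 6 and 10 the difference in male heart was -0.88 (limma adjusted p = 0.0488).

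In male liver, Aldh9a1 had 8.65, 8.75 and 8.81 in KO pools, against 9.50, 9.45 and 9.42 in WT pools, a difference of -0.72 (SE 0.09, limma adjusted p = 0.00235). In female liver it had 9.13, 9.22 and 9.09 in KO pools, against 9.57, 9.47 and 9.21 in WT pools, a difference of -0.27 (95% interval -0.46 to -0.07, limma adjusted p = 0.497). There WT pool 9 lay at the level of the highest KO pool. The probe set 1437398_a_at differed by -0.65 in male liver (limma adjusted p = 0.045) and by -0.51 in female liver (limma adjusted p = 0.142).

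The other genes of synthesis did not pass in any comparison. Bbox1, the enzyme of the final step, had 8.77, 8.67 and 8.71 in KO female livers and 8.90, 9.04 and 8.73 in WT female livers. KO male livers had 8.78, 8.79 and 8.55 and WT male livers 8.80, 8.77 and 8.96, so the genotypes overlapped in both sexes. The intervals of the difference ran from -0.38 to 0.03 in female and from -0.34 to 0.07 in male liver.

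The further Bbox1 probe set 1459030_at differed by -0.53 in male liver (limma adjusted p = 0.408) and by -0.15 in female liver. Tmlhe, the first enzyme of the path and an X-linked gene, had 5.64, 5.62 and 5.85 in KO male hearts and 5.42, 5.22 and 5.42 in WT male hearts, which do not overlap, with a difference of 0.36 (limma adjusted p = 0.466). In female heart its KO pools had 5.41, 5.39 and 5.76 and its WT pools 5.43, 5.52 and 5.46, which overlap. In liver it lay between 3.48 and 4.02 in all 12 pools, and its 3 further probe sets had means of 2.08 to 2.62 in either tissue.

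For the entry step, the muscle form Cpt1b was the one lower in KO heart. Cpt1b lies on chromosome 15, as Ppara does, and a part of the targeted region in its difference was not tested. Male hearts had 8.71, 8.93 and 8.54 in KO pools and 9.23, 9.24 and 9.30 in WT pools, and female hearts 8.74, 8.88 and 8.83 in KO pools and 9.22, 9.31 and 9.24 in WT pools. All 6 KO hearts lay below all 6 WT hearts.

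The Cpt1b difference was -0.53 in male heart (SE 0.09, limma adjusted p = 0.0219) and -0.44 in female heart (SE 0.09, limma adjusted p = 0.0803). The call in male heart was lost without WT pool 1, 2 or 3 (adjusted p = 0.0841, 0.0747 and 0.126), without KO pool 4 or 6 (adjusted p = 0.0947 and 0.122), and without pools 4 and 10 together (-0.52, adjusted p = 0.138). Without pools 4, 6 and 10 the difference was -0.32 (adjusted p = 0.566). It was also lost when only the arrays compared were fitted (adjusted p = 0.171). In female heart the difference passed with all 24 arrays in the fit (adjusted p = 0.0184) and with a trended variance (adjusted p = 0.00436). Cpt1b is also a skeletal muscle gene, and pool 4, with the raised skeletal muscle markers, had 8.71, between the other KO male hearts. What skeletal muscle RNA adds to that value was not tested.

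Cpt1a, the liver form, had 8.88, 8.86 and 9.39 in KO female livers and 9.37, 9.06 and 9.20 in WT female livers. KO male livers had 9.20, 9.08 and 8.68 and WT male livers 9.28, 9.16 and 8.85. The genotypes overlapped in both sexes, with differences of -0.17 (95% interval -0.53 to 0.20) and -0.11 (95% interval -0.47 to 0.25). In heart it lay between 5.78 and 6.34 in all 12 pools, and its further probe sets 1434866_x_at and 1438156_x_at passed in no comparison either.

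Crat, which makes acetylcarnitine, had 4.27, 4.65 and 4.50 in KO female livers, against 5.25, 5.74 and 4.76 in WT female livers. These do not overlap, with WT pool 9 close to KO pool 11, and the difference of -0.77 missed the threshold (SE 0.20, limma adjusted p = 0.193). Without pool 9 it was -1.02 (adjusted p = 0.018), and with all 24 arrays in the fit it passed too (adjusted p = 0.00949). These were the only 2 of 16 alternatives in which it passed, and over all of them it ran from -1.02 to -0.27. The further probe set 1441919_x_at had means of 4.02 in KO and 4.09 in WT female livers. For 1448544_at these means were 2.71 and 2.68. In male liver the difference was -0.28, and in heart -0.17 in females and -0.11 in males, with Crat between 7.74 and 8.05 in all 12 hearts.

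Crot had 7.67, 7.87 and 8.02 in KO male livers and 8.31, 8.10 and 8.62 in WT male livers, a difference of -0.49 (SE 0.17, limma adjusted p = 0.454). KO female livers had 8.36, 8.51 and 9.11 and WT female livers 8.75, 8.83 and 8.84, which overlap. In heart, where its signal is low, Crot differed by 0.05 in females and 0.06 in males.

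Groups that do not overlap were more common than calls. Of the 23 member probe sets, KO and WT pools did not overlap for 8 in female liver, where 9.66% of all probe sets did so, for 9 in male liver (15.6%), for 12 in female heart (11.5%) and for 11 in male heart (10.6%).

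The start regions of Slc25a20, Cpt2, Slc22a5 and Aldh9a1, the genes that fell in at least 3 of the 4 comparisons, are shown so that members that fell together can be compared by sequence. The windows run from 250 bases before to 50 bases after the annotated start of the gene, 5′ to 3′ on the gene's own strand, from RefSeq on build GRCm38.p6. They were found for 7 of the 10 genes, and Cpt1b, Crat and Tmlhe had no entry. Capitals mark the best match to a pair of half-sites AGGTCA in the same direction with 1 base between them, the kind of repeat that PPARα with RXR is known to bind, with at most 2 mismatches over the 12 bases. Windows without capitals held no such match.
Slc25a20 (chr9:108661886-108662185, plus strand): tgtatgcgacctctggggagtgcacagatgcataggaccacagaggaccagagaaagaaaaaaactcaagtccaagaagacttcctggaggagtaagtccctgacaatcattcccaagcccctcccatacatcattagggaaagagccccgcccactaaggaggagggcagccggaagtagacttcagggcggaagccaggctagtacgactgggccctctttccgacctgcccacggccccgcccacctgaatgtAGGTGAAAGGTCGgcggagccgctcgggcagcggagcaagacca
Cpt2 (chr4:107923540-107923839, minus strand): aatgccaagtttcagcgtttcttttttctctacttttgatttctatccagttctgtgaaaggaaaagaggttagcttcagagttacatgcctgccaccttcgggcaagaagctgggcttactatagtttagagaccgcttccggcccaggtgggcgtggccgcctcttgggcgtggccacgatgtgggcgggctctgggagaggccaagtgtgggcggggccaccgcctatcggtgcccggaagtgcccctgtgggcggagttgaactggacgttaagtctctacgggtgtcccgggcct
Slc22a5 (chr11:53891654-53891953, minus strand): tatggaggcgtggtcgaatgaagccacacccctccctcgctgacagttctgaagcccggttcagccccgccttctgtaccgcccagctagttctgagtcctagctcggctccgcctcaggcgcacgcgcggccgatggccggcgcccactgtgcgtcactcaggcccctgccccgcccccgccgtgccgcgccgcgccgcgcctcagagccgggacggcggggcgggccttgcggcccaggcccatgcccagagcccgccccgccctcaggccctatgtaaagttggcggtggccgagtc
Aldh9a1 (chr1:167349741-167350040, plus strand): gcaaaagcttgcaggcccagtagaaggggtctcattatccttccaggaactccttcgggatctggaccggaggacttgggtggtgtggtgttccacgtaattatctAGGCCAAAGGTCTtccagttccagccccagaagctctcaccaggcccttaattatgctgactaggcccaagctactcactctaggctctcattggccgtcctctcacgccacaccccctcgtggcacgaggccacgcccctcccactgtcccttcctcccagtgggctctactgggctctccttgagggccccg
Slc25a20 holds the repeat AGGTGAAAGGTCG at bases 257 to 269 of its window, and Aldh9a1 holds AGGCCAAAGGTCT at bases 107 to 119 of its window, each with 2 mismatches. The first 250 bases of a window lie before the start.

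With both strands searched, such a match stood in 2 of the 7 member windows and in 3.86% of the 32851 promoter windows of the table. Cpt2, which fell in all 4 comparisons, had no window position with fewer than 5 mismatches, and Slc22a5, which fell in 3, none with fewer than 4. Bbox1, which passed in none, had 3 mismatches at its best position, and Cpt1a and Crot had 4. Of all windows, 24.6% had a position with at most 3 mismatches and 79.8% one with at most 4. A match of letters is a description and shows no binding, and these windows leave out introns and more distant sequence.

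The sexes were compared next, since the 2 liver results that passed in 1 sex only, Slc22a5 and Aldh9a1, raise the question whether the KO effect differs between them. The test of that difference is the effect in females minus that in males. In liver it passed for none of the 23 member probe sets in limma, against 0.0311% of all probe sets. An unadjusted p under 0.05 was found for 3 of the 23, against 4.82% of all probe sets. Slc22a5 had -1.04 (SE 0.29, limma adjusted p = 0.931) and Aldh9a1 0.45 (SE 0.13, limma adjusted p = 0.931), with unadjusted p of 0.00386 and 0.00379. The intervals ran from -1.67 to -0.40 for Slc22a5 and from 0.17 to 0.73 for Aldh9a1 before adjustment for the number of probe sets. Both genes were picked by their calls in these same arrays, which favours small unadjusted p-values. In heart the test passed for no member, against 0% of all probe sets. There 1 of the 23 had an unadjusted p under 0.05, against 4.57% of all probe sets.

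Within a genotype, Slc22a5 was higher in females than in males in WT liver, with 6.28, 6.39 and 5.58 in WT females and 4.98, 4.85 and 4.76 in WT males. Its difference, female minus male, was 1.22 (SE 0.21, limma adjusted p = 0.00962), a 2.33-fold higher level, and the probe set 1421848_at gave 0.75 (limma adjusted p = 0.0276). In all, 2 of the 23 member probe sets passed there, where 1.17% of all probe sets did. The call of Slc22a5 was lost without pool 2, 3 or 8 (adjusted p = 0.0515, 0.0574 and 0.0552). In KO liver the same difference was 0.19 (limma adjusted p = 0.871).

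In KO liver, Crot was higher in females than in males by 0.80 (SE 0.17, limma adjusted p = 0.0463), the only member probe set of 23 to pass, against 1.09% of all probe sets. That call was lost without any of pools 4, 5, 6, 11 and 12 (adjusted p from 0.0661 to 0.202). Aldh9a1 differed by 0.41 (limma adjusted p = 0.0506), with 9.09 to 9.22 in KO females and 8.65 to 8.81 in KO males. In heart no member passed between the sexes in limma, against 0.0133% of all probe sets in KO and 0.0178% in WT heart. An unadjusted p under 0.05 was found for 4 of the 23 in KO heart, against 5.97% of all probe sets. In WT heart it was found for 1 of the 23, against 5.73%.

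The tissues were compared by subtracting the KO minus WT difference in heart from that in liver. The arrays of the 2 tissues differed in how far the 3′ signal of a gene exceeded its 5′ signal. For Actb the lowest liver array had an excess of 1.11, while the highest heart array had 0.63. For Gapdh these values were 0.29 and 0.19. What this difference between the tissues adds to the values below was not tested. Among females 2 of the 23 member probe sets passed, where 0.4% of all probe sets did. Aldh9a1 was one, with a value of 0.76 (SE 0.14, limma adjusted p = 0.00602), which sets the effect of -0.27 in female liver against -1.03 in female heart. Its probe set 1437398_a_at gave 0.63 and did not pass (limma adjusted p = 0.404). The call was lost without pool 11 in both tissues (0.66, adjusted p = 0.0736) and when only the female arrays were fitted (adjusted p = 0.071).

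The other was the Slc25a20 probe set 1423109_s_at, with -0.80 (limma adjusted p = 0.00466), and it was the only member to pass among males, with -0.84 (limma adjusted p = 0.00323), against 0.271% of all probe sets. The probe set that represents Slc25a20 gave -0.33 in females and -0.08 in males and did not pass (limma adjusted p = 0.738 and 0.954). The 2 probe sets thus differ in their calls, with negative values for both in each sex, and they were not tested against each other. Cpt1b, near the array median in liver, gave 0.48 in females and 0.56 in males (limma adjusted p = 0.132 and 0.0657), and Cpt2 gave -0.15 and -0.08.

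Genes around the shuttle, counted with 1 probe set per gene, moved in part with it. The lists do not show where in the cell an enzyme acts. Of 14 genes of the mitochondrial beta-oxidation list, the pathway that CPT2 feeds, 11 fell in female liver and 10 in male liver. In female heart 10 fell and in male heart 10. In that order, 0.731%, 0.555%, 0.473% and 0.407% of all genes passed in either direction. The list medians were -0.75, -0.50, -0.62 and -0.69, and none of the 14 genes rose past the threshold. In liver the largest falls were those of Eci2 (-2.03 in females, -1.83 in males) and Etfdh (-1.72 and -1.60), which act on double bonds and pass electrons to the respiratory chain. In heart they were those of Decr1 (-1.79 and -1.67), for unsaturated fatty acids, and Acadvl (-1.06 and -1.11), the very-long-chain dehydrogenase.

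Of 11 measured genes of the peroxisomal oxidation list, 6 fell in female liver, 5 in male liver, 4 in female heart and 3 in male heart. The shares of all genes are those given for the mitochondrial list, and the medians were -0.96, -0.50, -0.20 and -0.21. Decr2 had the largest fall in liver (-3.13 in females, -3.30 in males) and Ech1 in heart (-1.74 and -1.63).

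Genes that make acyl-CoA or set malonyl-CoA, the inhibitor of CPT1, moved less. The list medians were -0.01 in female liver, -0.13 in male liver, -0.05 in female heart and -0.03 in male heart. Of 7 measured, none passed in limma in female liver, where 0.731% of all genes did. An unadjusted p under 0.05 was found for 2 of the 7 there, against 5.69% of all probe sets. In male liver 1 of the 7 passed, against 0.555% of all genes. This was Acacb, which makes malonyl-CoA at mitochondria and rose by 1.24 (limma adjusted p = 0.00522), to a mean of 6.06 in KO against 4.81 in WT. In hearts of each sex 1 of the 7 fell and 1 rose past the threshold, against 0.473% of all genes in females and 0.407% in males. Mlycd, which breaks malonyl-CoA down, fell by 0.56 in female and 0.60 in male heart, and Acsl6, an acyl-CoA synthetase, rose by 0.84 and 0.90. Of 7 other carnitine carriers and related acyltransferases, among them Slc22a4 and Cpt1c, none passed in any of the 4 comparisons in limma, and none had an unadjusted p under 0.05. Of all genes, 0.407% to 0.731% passed in these comparisons. An unadjusted p under 0.05 was found for 5.69% to 8.51% of all probe sets.

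**Figure D4:**
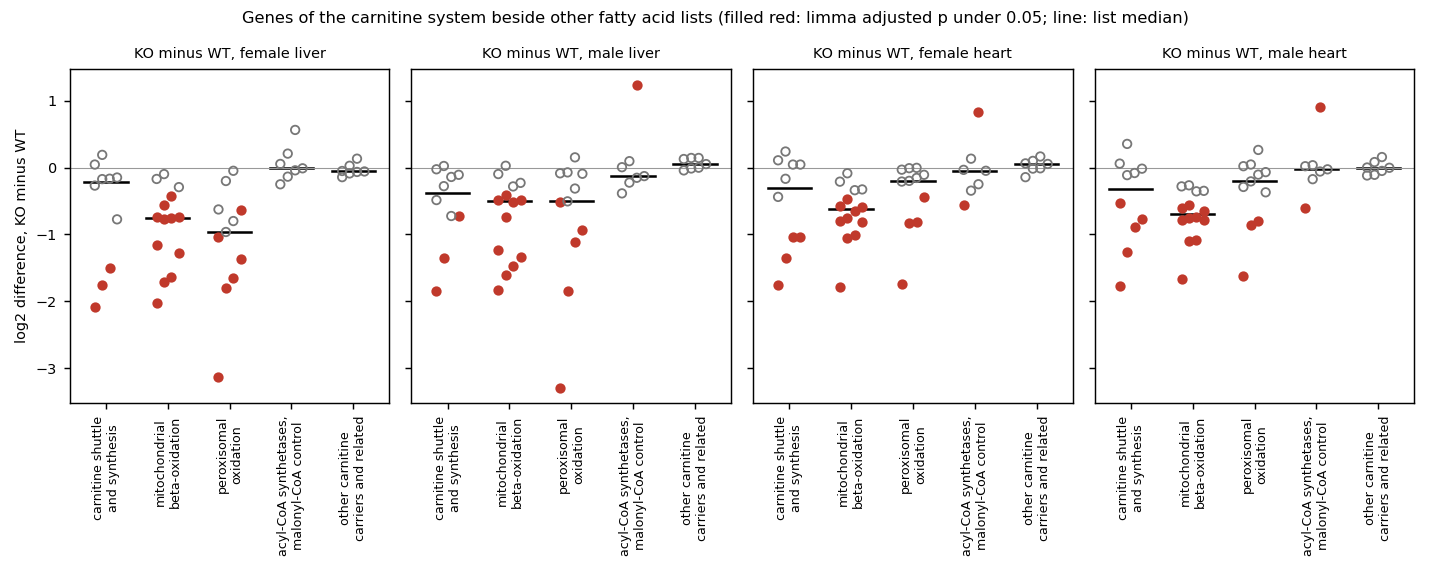
Log2 difference, KO minus WT, of single genes (points) in 5 gene lists (horizontal axis) for the 4 comparisons (panels), with 1 probe set per gene. Filled red points have a limma adjusted p under 0.05, open points do not, and black lines are list medians. In the carnitine list 3, 3, 4 and 5 of 10 genes are red, all below 0, and in the list of other carnitine carriers none is.

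For each member that passed in a tissue, the 3 genes whose levels ran most like its own over the 12 arrays of that tissue were taken. Of these 27 positions, 12 held genes of the mitochondrial beta-oxidation list and 3 held Ech1, of the peroxisomal oxidation list. The other 12 held genes of none of the lists. For Slc25a20 all 6 positions were in these lists, while for Slc22a5 only 1 of 6 and for Aldh9a1 2 of 6 were. In liver, among 11853 genes above the median, Slc25a20 ran closest to Eci2, Eci1 and Etfdh (Pearson r = 0.99 each) and Cpt2 to Ech1 and Etfb (r = 0.99 each). Slc22a5 ran closest to Cyp4a14 (r = 0.96), a fatty acid hydroxylase, and Aldh9a1 to Acadl (r = 0.90). In heart, among 11570 genes, Slc25a20 ran closest to Decr1 and Cpt2 to Ech1 (r = 0.995 each), Cpt1b to Acadvl (r = 0.96), Slc22a5 to Creg1 (r = 0.98) and Aldh9a1 to Plbd1 (r = 0.98). These values describe arrays that share the genotype difference and carry no test.

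Markers of other cell types differed between KO and WT pools in places. Of all probe sets, 5.8% had an unadjusted p under 0.05 in male heart and 5.69% in female liver. In male heart the 9 skeletal muscle markers had a median difference of 0.55, with 3 at an unadjusted p under 0.05, and the 3 lymphocyte markers one of 0.33, with 1 such. Pools 4 and 6 were the hearts with the highest means of these lists. In female liver the 6 markers of macrophages and Kupffer cells had a median difference of 0.34, with 2 at an unadjusted p under 0.05, and list means of 4.51 to 4.79 in KO and 4.14 to 4.71 in WT pools, which overlap. None of these markers passed in limma after adjustment. Of 13 marker lists, the atrial list alone had members past the threshold between KO and WT. Myl7 (-0.65) and Sln (-0.71) were lower in KO female heart, where the mean of the 4 atrial markers was 10.38 to 10.78 in KO and 10.99 to 11.08 in WT pools. White adipocyte markers averaged at most 5.96 in KO female hearts, below all 3 WT female hearts, which reached 6.44, with a median difference of -0.46. In male heart the atrial mean was 10.99 to 11.24 in KO and 10.83 to 11.07 in WT pools, which overlap. The part of these cell types in the member results was not tested.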

How the data were processed

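RNA of 24 tissue pools was measured on Affymetrix mouse arrays. Per the submitters' processing notes the authors used RMA, whose version is not given in the sources used here, and the table they deposited holds log2 intensities. The genome build is not given in the sources used here. Medians of single arrays ran from 2.43 to 2.49 (liver) and from 3.01 to 3.07 (heart). The number of arrays limits the precision.

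All 45037 probe sets left after 64 controls were tested in R 4.3.3 with limma 3.58.1 (moderated two-sided tests on group means). The 12 arrays of a tissue were fitted together, and all 24 for tissue by genotype. Adjustment was by Benjamini-Hochberg over all probe sets, with a threshold of 0.05 and no filter on dim probe sets. In all, 12 comparisons were made. The pipeline was tested on simulated data.

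The members, the pathway and marker lists and the rule for named genes (all members, Ppara, and up to 4 of each pathway list with the largest differences past the threshold) were chosen with earlier results of these data known. Sequences came from RefSeq windows. Pool numbers are shared by liver and heart, but deviations of same-numbered pools correlated between -0.20 and 0.13, so pools were not paired. Alternatives were other sets of arrays, a trended variance, array weights, new quantile normalization, filters, other probe set rules, a replicate block, each pool left out, heart pools 4 and 10 left out and, added after seeing the data, heart pools 4, 6 and 10 left out.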

Additional observations from a re-analysis of the deposited data

Results flagged for a closer look

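The test of a difference in KO effect between liver and heart (limma over all 24 arrays) passed for 3 member results. Aldh9a1 in females had a value of 0.76 (adjusted p = 0.00602), with KO minus WT at -0.27 in liver and -1.03 in heart. The Slc25a20 probe set 1423109_s_at had -0.80 in females (adjusted p = 0.00466) and -0.84 in males (adjusted p = 0.00323), with KO minus WT at -2.61 and -2.65 in liver and -1.80 and -1.81 in heart. The probe set that represents Slc25a20 did not pass in either sex, and the further Aldh9a1 probe set 1437398_a_at did not pass in females. The call of Aldh9a1 was lost without pool 11 in both tissues (0.66, limma adjusted p = 0.0736). It was also lost when only the female arrays were fitted (limma adjusted p = 0.071).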

How the results depend on the processing

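Slc25a20 and Cpt2 passed in all 4 comparisons of KO with WT under every alternative run, and so did Aldh9a1 in male liver and both hearts and Slc22a5 in female heart. Slc22a5 in male heart lost its call under 1 alternative, chosen after seeing the data, which left out heart pools 4, 6 and 10 (-0.83, adjusted p = 0.0838). Member counts in those comparisons ran over the alternatives from 2 to 4 in female liver, 3 to 4 in male liver, 4 to 5 in female heart and 3 to 5 in male heart, where 3 genes passed without pools 4, 6 and 10. For tissue by genotype in females the count of 1 became 0 when only the arrays compared were fitted and 2 with a gene's probe sets averaged, and 0 to 1 with a pool left out. In males the count of 0 became 1 (Cpt1b) with array weights, with 1 probe set per gene and with the mean of all probe sets, and 0 to 1 with a pool left out. For female minus male in KO liver the count of 1 became 0 when only the arrays compared were fitted or all probe sets of a gene were averaged, 2 with all 24 arrays, a trended variance, array weights or 1 probe set per gene, and 0 to 1 with a pool left out. Crot lost its call there under renewed quantile normalization as well (0.76, adjusted p = 0.08), and averaging its probe sets gave 0.37 (adjusted p = 0.142). In WT liver the count of 1 became 3 with all 24 arrays, a trended variance or array weights, and 2 with renewed quantile normalization, with probe sets above the median or with the mean of all probe sets, and 0 to 2 with a pool left out. The cause of these changes was not tested.

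With the pool number as a replicate block, tissue by genotype had 1 member in females and 0 in males, as without it, and Aldh9a1 kept 0.76 (adjusted p = 0.00604). The block correlation was -7e-04, and 4 of 12 pools correlated best with their own number.

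Signs turned only for differences near 0 that never passed. Array weights gave -0.0024 for Cpt1b in female liver and 0.0031 for Bbox1 in male heart, the mean of all probe sets gave 3e-04 for Bbox1 in male heart, quantile normalization gave 0.0462 for Tmlhe in male liver, and leaving out heart pools 4 and 10 gave -0.0504 for Crot in male heart. Leaving out pools 4, 6 and 10 gave -0.1743 for Crot, 0.0189 for Crat and 0.0082 for Bbox1 in male heart. With a pool left out, the ranges were Cpt1b in female liver -0.0171 to 0.0888, Crot in female liver -0.373 to 0.0029, Cpt1b in male liver -0.0404 to 0.0576, Tmlhe in male liver -0.083 to 0.0547, Cpt1a in male liver -0.232 to 0.0472, Crot in female heart -0.0301 to 0.123, Cpt1a in female heart -0.0133 to 0.222, Tmlhe in female heart -0.074 to 0.111, Bbox1 in male heart -0.0867 to 0.0678 and Crot in male heart -0.0504 to 0.178.

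All-probe-set counts moved more: 79 to 384 for 216 in female liver, 83 to 279 for 155 in male liver, 7 to 45 for 14 (sex by genotype, liver), 57 to 156 for 124 in male heart, 99 to 281 for 180 and 55 to 141 for 122 (tissue by genotype, females and males), 274 to 867 for 491 and 308 to 923 for 526 (sexes, KO and WT liver), 0 to 20 for 6 and 0 to 16 for 8 (sexes, KO and WT heart). With 3 pools a group, the SE of a member's KO minus WT difference ran from 0.07 to 0.21, which limits what could be seen in the genes that did not pass.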
